A study of Drosophila melanogaster with 4 samples.

Results

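KDM4A regions of chromosome 4 were the rows typed as significantly enriched and placed on sequence 4 in the deposited region lists. There were 369 of them among 28285 regions over all chromosomes. They comprised 128 of 11489 regions in ChIP replicate 1, 83 of 5780 in ChIP replicate 2 and 158 of 11016 in a list made for the whole series, called the combined list here. The lists come from chromatin immunoprecipitation with sequencing (ChIP-seq) on 3rd instar larvae of the wild-type strain Oregon-R-modENCODE, with no transgene or treatment named. An affinity-purified rabbit polyclonal antibody raised against residues 350 to 449 of JMJD2A/KDM4A was used. These residues were recorded for ChIP replicate 1 and input replicate 1, and not for ChIP replicate 2. The series holds 2 ChIP samples and 2 input samples, of which the input samples have no region list here. Titles and source names gave the groups, because the free-text descriptions of ChIP replicate 2 and input replicate 1 went against them. The description of ChIP replicate 2 reads input DNA, and that of input replicate 1 names ChIP DNA and the antibody. The values called replicate 2 below therefore belong to the library titled ChIP replicate 2, and every comparison of the replicates depends on that title. The labels do not say whether the replicates came from separate collections of larvae, and the spread between them may be technical only. Whole larvae mix many cell types, and binding in fewer cells cannot be told apart from weaker binding per cell.

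KDM4A belongs to the JmjC family of histone demethylases, removes methyl groups from histone H3 at lysine 36 and lysine 9, and binds the heterochromatin protein HP1a. Chromosome 4 of Drosophila, the dot chromosome, is the smallest chromosome of the fly. Its genes are interspersed with repeats, and it carries HP1a and the chromosome-specific protein POF along much of its length while many of its genes are expressed. Among these genes are eyeless (ey), a Pax6 transcription factor of eye development, and cubitus interruptus (ci), the transcription factor of Hedgehog signalling. The release 6 gene table lists 114 genes on it, 80 of them protein-coding. Positions in the lists are of FlyBase release 5, where chromosome 4 is 1351857 bp long and is numbered from the centromere-proximal end towards the telomere. Genes were therefore not assigned to regions.

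In ChIP replicate 1, KDM4A regions formed a nearly continuous cover of chromosome 4, with wide regions set close together. In ChIP replicate 2 they were shorter and lay in separate groups. The covered share was 81.5% and 21.4% in the replicates (mean 51.4%, SD 42.4, n = 2), and 71.0% in the combined list. Median width was 4037.5 bp in replicate 1 (range 1328 to 62290), 2771 bp in replicate 2 (1316 to 10688) and 2563 bp in the combined list (1001 to 59615). The replicates thus differed most in the upper part of the width range. The upper quartile of width was 9788 bp in replicate 1 and 4630 bp in replicate 2. Replicate 1 had 32 regions wider than 10 kb, the combined list 27 and replicate 2 only 1.

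Gaps between neighbouring regions were short on chromosome 4 when all regions of a list were counted. Their median was 955 bp in replicate 1, 2616 bp in replicate 2 and 1107 bp in the combined list. On the arms 2L, 3L, 3R and X, pooled and measured in the same lists, the median gap was 3147 bp, 5523 bp and 2756 bp. Arm 2R was not among the arms compared, here or below. Median gaps were thus shorter on chromosome 4 than on the pooled arms in each list. Among regions at or above the median score of their list, the median gap on chromosome 4 was 1018 bp in replicate 1, 4987 bp in the combined list and 23319.5 bp in replicate 2, against 8874 bp, 7675 bp and 13792.5 bp on the arms. In replicate 2 the direction therefore turned round among these higher-scoring regions, a comparison with the arms that was added after the values were seen. The limit kept 76.6% of chromosome 4 regions in replicate 1, 43.7% in the combined list and 39.8% in replicate 2. Removing regions lengthens gaps, and the part of this in the turn was not tested. Of the gaps on chromosome 4, 52.4% in replicate 1 (66 of 126), 48.4% in the combined list (76 of 157) and 28.0% in replicate 2 (23 of 82) were under 1 kb. On the arms these shares were 23.1%, 27.2% and 16.4%. Gaps above 5 kb made up 8.73% of those on chromosome 4 in replicate 1, 10.8% in the combined list and 40.2% in replicate 2, against 38.1%, 36.3% and 52.5% of those on the arms. Replicate 2 therefore had both closely set regions and long empty gaps on chromosome 4, while replicate 1 had few long gaps. With 2 replicates the differences between chromosome 4 and the arms were not tested.

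**Figure D1:**
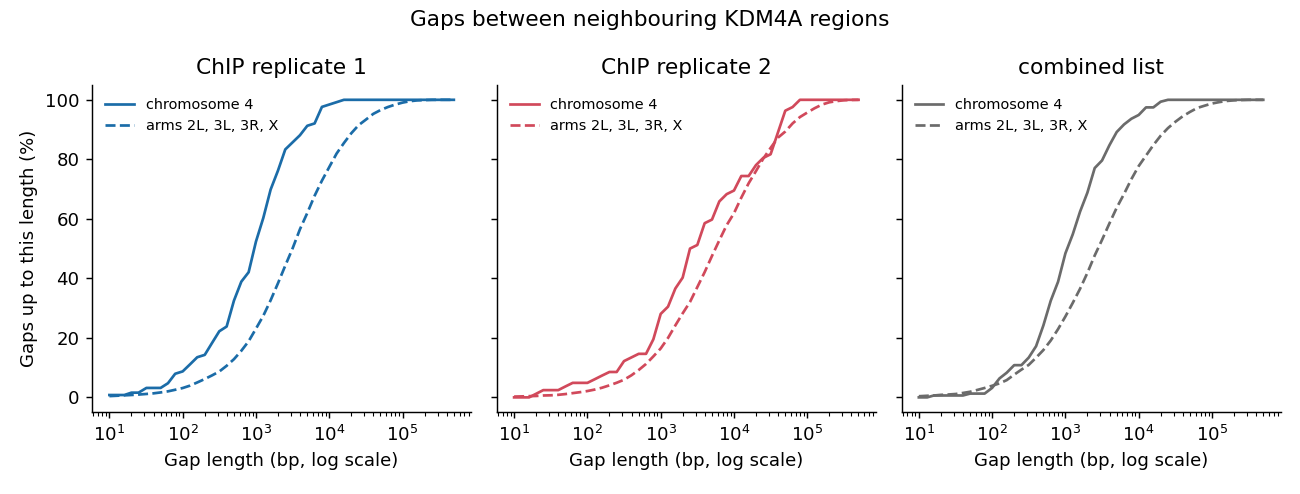
Cumulative share of gaps (y axis, %) by gap length (x axis, bp, log scale) in the 3 lists, for chromosome 4 (solid line) and the arms 2L, 3L, 3R and X (dashed line). The chromosome 4 line lies left of the arm line at the median in each list, at 955 bp against 3147 bp in ChIP replicate 1, and in ChIP replicate 2 the lines meet at long gaps.

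Wide regions also took a larger share of chromosome 4 than of the arms. Regions over 10 kb made up 25.0% of chromosome 4 regions and held 68.5% of the covered bases in replicate 1, against 1.01% and 4.66% on the arms. In replicate 2 they were 1.20% of chromosome 4 regions with 3.69% of the bases, against 0.475% and 2.11%. The excess was therefore large in replicate 1 and rested on a single region in replicate 2. That region, 4 218078 to 228765, measured 10.7 kb, just above the limit, and the next widest in replicate 2 measured 9.32 kb. Regions per Mb differed less than covered bases, at 94.7 on chromosome 4 against 83.6 on the arms in replicate 1, and 61.4 against 45.2 in replicate 2.

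Coverage was not even along the chromosome. Over the 13 full segments of 100 kb, numbered from the centromere-proximal end, the covered share in replicate 1 had a median of 89.9% and ran from 63.8% in segment 1 to 97.8% in segment 3. In replicate 2 the median was 23.3%, with the lowest value of 7.67% in segment 8 and the highest of 29.0% in segment 11. The combined list had a median of 75.7%, a lowest value of 45.9% in segment 8 and a highest of 92.8% in segment 2. Segment 8 (700001 to 800000) was thus the lowest full segment of replicate 2 and of the combined list, and it was covered to 65.0% in replicate 1, the second lowest value there. The last segment, 51.9 kb at the telomere-proximal end, was covered to 25.0%, 3.26% and 23.6% in replicate 1, replicate 2 and the combined list, below every full segment of the same list.

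**Figure D2:**
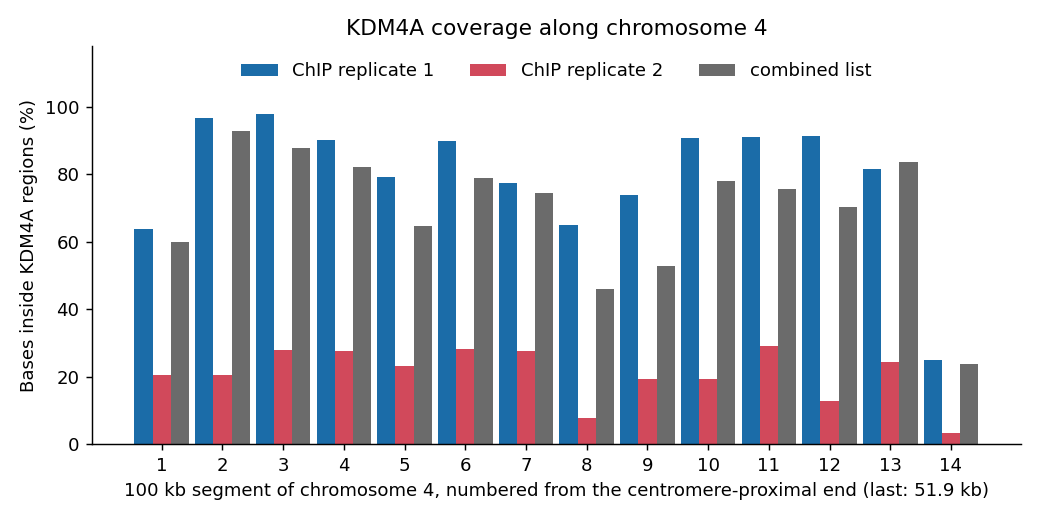
Share of bases inside KDM4A regions (y axis, %) in each 100 kb segment of chromosome 4 (x axis, numbered from the centromere-proximal end; the 14th is 51.9 kb long), with 1 bar for each list. ChIP replicate 1 lies between 63.8% and 97.8% and ChIP replicate 2 between 7.67% and 29.0% in the full segments, and all 3 lists are lowest in the 14th.

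The outer borders of the covered part lay close together in replicate 1 and the combined list. The first region began at 26054 in replicate 1, at 26936 in the combined list and at 62867 in replicate 2. At the other end the last region stopped at 1344389, 1343820 and 1323786, so that 7.47 kb, 8.04 kb and 28.1 kb before the end of the sequence held no region. In replicate 2 the covered part was therefore shorter at both ends. The 9 replicate 1 regions centred in segment 1 included 8 that were under 10 kb, followed by the region 60128 to 97688 (37.6 kb, score 2.32), where the first 5 replicate 2 regions lay.

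When replicate 1 regions were joined across gaps of up to 5 kb, chromosome 4 resolved into 12 stretches. The longest ran from 865291 to 1292490 (427 kb, 39 regions) and was covered to 90.7% in replicate 1, 79.1% in the combined list and 22.1% in replicate 2. The next ran from 26054 to 396811 (371 kb, 26 regions), and the one after it from 403959 to 611072 (207 kb, 28 regions). These 3 stretches together held 93 of the 128 replicate 1 regions, with 29, 23 and 18 replicate 2 regions in them in the same order. The part between 617842 and 857941 was broken into 5 shorter stretches of 23.7 to 75.4 kb. Of these, the stretch from 741407 to 772982 (31.6 kb, 6 regions, widest 8.52 kb) had no replicate 2 region and was covered to 43.3% in the combined list. Its neighbour from 788797 to 812527 was covered to 98.1% in replicate 1, 88.5% in the combined list and 37.3% in replicate 2. The last 4 stretches, from 1299140 on, held 6 regions in all, none wider than 2.91 kb. Joined in the same way, the combined list gave 18 stretches and replicate 2 gave 34, the widest of which spanned 370 kb and 37.4 kb.

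Replicate 1 left 11 gaps of more than 5 kb on chromosome 4, 90.1 kb in all. Replicate 2 had 0 regions in any of them, and the combined list covered 7.73% of their bases. The longest ran from 772983 to 788796 (15.8 kb) and contained a single combined region. The second, 1331879 to 1342148 (10.3 kb), held no region of any list. Of the next, 1312261 to 1321773 (9.51 kb), the combined list covered 32.9%. In 4 of the other 8 (396812 to 403958, 736328 to 741406, 812528 to 820419 and 857942 to 865290), no list had a region either. Of the 11 gaps, 5 were thus empty in all 3 lists. Bases outside all lists came to 222 kb or 16.4% of the chromosome, against 72.9% of the arms.

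Replicate 2 left much longer gaps, and replicate 1 had regions in all of those above 10 kb. There were 25 such gaps in replicate 2, which took up 846 kb or 62.6% of chromosome 4. Replicate 1 covered 78.4% of their bases, near its 81.5% of the whole chromosome. Over the gaps its lowest value was 28.3% and its median 87.3%. The combined list covered 62.3% of the gap bases, against 71.0% of the whole chromosome. The 82 replicate 1 regions that lay wholly in these gaps had a median width of 3305 bp and a median score of 0.97, but a region had to be narrower than the gap to be among them. They made up 58.1% of the gap bases that replicate 1 covered. The other 41.9% came from 33 regions that reached out of the gaps, with a median width of 18152 bp and a median score of 1.79. All 32 replicate 1 regions over 10 kb had bases in these gaps, and together they supplied 57.2% of the covered gap bases. The gaps from 488821 to 500198 (11.4 kb) and from 1055525 to 1067530 (12.0 kb) were each covered to 100% by a single region of replicate 1, 62.3 kb and 42.4 kb wide. The sequence without replicate 2 regions was thus filled by both narrow and wide regions of replicate 1.

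The longest replicate 2 gap, 719065 to 797724 (78.7 kb), was covered to 56.4% in replicate 1 and 32.3% in the combined list. The second, 235240 to 308755 (73.5 kb), was covered to 94.5% and 78.2%. The next, 981715 to 1034318 (52.6 kb), was covered to 87.3% and 55.9%. The 3 gaps therefore differed in how far the other lists filled them, and the longest was the least filled. The combined list had its 3 longest gaps at 396781 to 418291 (21.5 kb), 810575 to 827723 (17.1 kb) and 1293387 to 1309811 (16.4 kb). Replicate 1 covered 38.9%, 37.5% and 22.7% of these, and replicate 2 had no region there.

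Within a list, no chromosome 4 region was nested in another or overlapped one. A single pair abutted without a gap, 523510 to 526078 and 526079 to 527804 in replicate 1. Nesting arose between lists. Of the 83 replicate 2 regions, replicate 1 touched all 83, with 91.8% as the share over all chromosomes. Exactly 77 (92.8%, exact Clopper-Pearson 95% interval 84.9 to 97.3) lay wholly inside 1 replicate 1 region, where the share over all chromosomes was 33.4% and on the arms 33.1% (1462 of 4420). Replicate 2 regions on the arms therefore mostly crossed a border of the replicate 1 region they touched, and those on chromosome 4 mostly did not. Replicate 1 covers 81.5% of chromosome 4 and has wide regions there, and the part of that in the count was not tested. Intervals of this kind cover counting error over positions only.

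The nested regions were gathered in few hosts. The 77 lay in 30 of the 128 replicate 1 regions, and 70 of them in 23 hosts wider than 10 kb. Of the 30 hosts, 11 held 1 replicate 2 region, 8 held 2, 5 held 3 or 4 and 6 held 5 or more. These 6 had a median width of 38.1 kb, and together they held 33 replicate 2 regions. On the arms no replicate 1 region held 5 or more, and 12 of 8185 held 3 or 4. The fullest host on chromosome 4 was the widest region of replicate 1, 461151 to 523440 (62.3 kb, score 1.82), with 8 replicate 2 regions wholly inside and 10 touching, which covered 41.6% of it. The widest combined region, 454062 to 513676, held 9.

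Exactly 6 replicate 2 regions were not wholly inside a replicate 1 region. Of these, 4 had more than 80% of their bases in replicate 1. The other 2 were 308756 to 310192 with 51.3% and 1285859 to 1287332 with 29.2%, the single region below 50%. The reverse nesting occurred once, where the replicate 1 region 458700 to 460755 (2056 bp, score 0.54) lay inside the replicate 2 region 458026 to 462447. Nesting on chromosome 4 thus ran almost wholly in 1 direction. The share of replicate 1 regions inside a replicate 2 region was 0.781%, against 9.16% over all chromosomes.

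Recovery of replicate 1 regions in replicate 2 differed between width classes, and a wider region has more room to be touched. On chromosome 4, replicate 2 touched 36 of 128 replicate 1 regions (28.1%, where the share over all chromosomes was 45.8%). By width it touched 10 of 71 regions under 5 kb (14.1%, 6.97 to 24.4), 2 of 25 regions of 5 to 10 kb (8.00%, 0.984 to 26.0) and 24 of 32 wider ones (75.0%, 56.6 to 88.5). On the arms the shares were 46.0% (44.9 to 47.1), 84.6% (81.5 to 87.3) and 91.6% (83.4 to 96.5). At equal width class, chromosome 4 regions of replicate 1 were therefore met less often in replicate 2 than arm regions. Above 10 kb the intervals overlapped. The intervals treat neighbouring regions as independent and belong to these libraries, so whether they overlap does not test the difference. That difference was not tested.

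**Figure D3:**
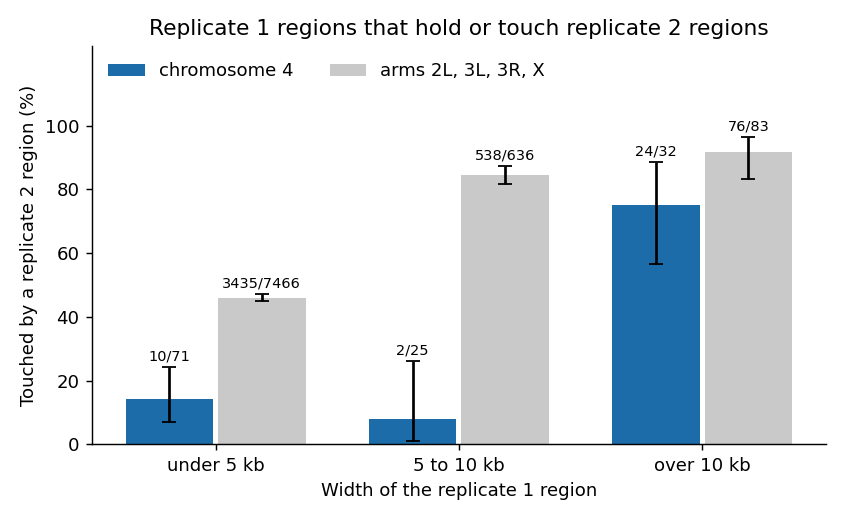
Share of replicate 1 regions touched by at least 1 bp of a replicate 2 region (y axis, %) by width of the replicate 1 region, for chromosome 4 and the arms 2L, 3L, 3R and X. Bars are shares, error bars exact 95% binomial intervals, and the fraction above each bar gives the counts, from 2 of 25 (chromosome 4, 5 to 10 kb) to 76 of 83 (arms, over 10 kb).

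Where wide replicate 1 regions were met, only part of their length was. In the 24 chromosome 4 regions over 10 kb that replicate 2 touched, it covered 42.5% of the bases, with a median of 43.5% and a range of 14.0% to 85.3% for a single region. Over all 32 regions of that width, the 8 untouched ones included, it covered 35.7%. In the 83 arm regions of that width, touched or not, it covered 48.8%. In regions of 5 to 10 kb the figures were 1.74% on chromosome 4 and 53.9% on the arms. The 24 wide regions with a replicate 2 region had a median width of 21.1 kb and a median score of 1.98 (range 1.13 to 2.58). The 8 without one had 14.2 kb and 1.33 (1.00 to 1.94), so the score ranges overlapped. A wider region has more room to be touched, so these differences are not independent of width. The widest untouched region was 166915 to 189890 (23.0 kb, score 1.53).

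Internal gaps show how a continuous region of 1 list was interrupted in another. On chromosome 4, 51 of the 82 gaps between replicate 2 regions (62.2%) lay wholly inside a replicate 1 region, over 19 such regions. On the arms 390 of 4416 did (8.83%). The internal gaps of chromosome 4 ran from 18 to 12006 bp with a median of 1291 bp, and the 31 remaining gaps from 900 to 78660 bp with a median of 26550 bp. Of the 23 gaps under 1 kb in replicate 2, 22 were internal, and of the 25 above 10 kb, 3 were. A gap had to be shorter than its replicate 1 region to be internal, so internal and remaining gaps differ in length partly by construction. Replicate 1 covered 81.5% of chromosome 4 and 23.0% of the arms, and the part of that in the shares was not tested. The internal gaps added up to 120 kb of sequence that replicate 1 covered and replicate 2 left out.

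Combined regions on chromosome 4 lay mostly in replicate 1 and cut its regions into more pieces. On chromosome 4, 97.0% of combined bases lay in replicate 1 and 84.5% of replicate 1 bases in the combined list, against 84.7% and 80.6% on the arms. Replicate 2 lay within the combined list almost to the base, with 13 bp outside it. Replicate 1 touched 152 of 158 combined regions (96.2%, 83.5% over all chromosomes), and 101 of them (63.9%, 27% over all chromosomes) were wholly inside a replicate 1 region. Replicate 1 covered 81.5% of chromosome 4 and 23.0% of the arms, and the part of that in these shares was not tested. Of the 128 replicate 1 regions, 36 met 2 or more combined regions, 69 met 1 and 23 met none. The region 101740 to 146700 (45.0 kb), the second widest of replicate 1, met 5, the most of any. The 61 combined gaps inside replicate 1 regions were short, with a median of 529 bp and a longest of 2421 bp.

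Fusion in the other direction was less common. Of 158 combined regions, 13 met 2 or more replicate 1 regions and at most 3. The combined list bridged 14 of the 126 replicate 1 gaps, all of them between 3 and 548 bp long. Replicate 1 regions wholly inside a combined region numbered 6 of 128 (4.69%, 26.9% over all chromosomes), from 1920 to 14554 bp wide. The gaps bridged were therefore among the shorter ones, since the median gap of replicate 1 was 955 bp. None of the 158 combined regions was wholly inside a replicate 2 region (0%, upper limit of the exact 95% interval 2.31%), against 5.3% over all chromosomes.

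Some regions stood in a single list. The 23 replicate 1 regions absent from the combined list (105 of 128 were found, 82.0%, against 79.6% over all chromosomes) had widths of 1328 to 4783 bp and a median score of 0.73. They included the first 5 regions of the stretch that began at 403959, each 1416 to 2153 bp wide, and 4 regions between 820420 and 833287. The 6 combined regions found in neither replicate were 615180 to 616314, 750396 to 751710, 777618 to 778618, 827724 to 828932, 1009296 to 1010332 and 1317566 to 1320490. Their widths ran from 1001 to 2925 bp. Of these 6, 5 scored between 0.24 and 0.67. The exception was 615180 to 616314, with a score of 1.82, the second highest of the combined list on chromosome 4. On chromosome 4 the narrowest region was 1328 bp in replicate 1, 1316 bp in replicate 2 and 1001 bp in the combined list. On the arms it was 1301 bp, 1305 bp and 1001 bp. At 1135 bp, 615180 to 616314 was thus narrower than any replicate region of these chromosomes. So were 777618 to 778618, 827724 to 828932 and 1009296 to 1010332. Whether their absence from the replicate lists reflects their width was not tested.

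Borders of replicate 1 regions coincided with those of the combined list more often than with those of replicate 2. Abutting regions counted as 1, replicate 1 had 254 borders on chromosome 4, of which 178 lay within 1 kb of a border of the combined list (70.1%, exact 95% interval 64.0 to 75.6). The median distance was 356 bp. Of the same borders, 26 lay within 1 kb of a border of replicate 2 (10.2%), with a median distance of 9446 bp. The combined list had more borders there than replicate 2 (316 against 166) and is not independent of the replicates. The part of this in the contrast was not tested. On the arms 74.9% of replicate 1 borders were within 1 kb of the combined list and 42.9% within 1 kb of replicate 2. In the reverse direction, 13.9% of the 166 replicate 2 borders on chromosome 4 lay within 1 kb of a replicate 1 border, against 73.5% of the 8840 on the arms. Of the 316 combined borders on chromosome 4, 53.2% lay within 1 kb of a replicate 1 border, against 80.1% on the arms. In both directions the share was thus lower on chromosome 4 than on the arms, for the combined list too, and the difference was larger for replicate 2. For the 13 pairs of regions on chromosome 4 that met each other and no other region, the replicate 2 region began a median of 746 bp after and ended a median of 1282 bp before its partner. On the arms, the 3135 such pairs differed by 39 bp and 44 bp in the same directions.

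Nested replicate 2 regions on chromosome 4 mostly lay more than 2 kb from both borders of their hosts. For the 77 nested regions the median distance to the nearer border of the host was 3787 bp, from 8 to 25120 bp. Exactly 56 of them lay more than 2 kb from both borders and 9 came within 500 bp of one. They were chosen for lying inside a host, and 70 of them had a host over 10 kb. Such hosts leave much room away from their borders, and the part of this in the distances was not tested. Around the 64 borders of replicate 1 regions over 10 kb, replicate 2 had a region at 7.81% of the borders themselves. At 1 kb inside the border the share was 20.3%, at 3 kb 42.2% and at 5 kb 39.1%. At 500 bp outside the border it was 6.25%, and at 5 kb outside 25.0%. From 3 to 7 kb inside it ran between 39.1% and 46.6%, so most of the rise lay in the outer 3 kb. Deeper inside, where fewer borders count, it was 50.0% at 8 kb (42 borders) and 25.0% at 10 kb (28 borders). Replicate 1 itself had another region at 39.1% of the points 500 bp outside and at 82.8% of those 2 kb outside. Over the whole chromosome, replicate 1 covered 81.5% of the bases and replicate 2 covered 21.4%. These shares are close to the 82.8% at 2 kb outside and the 25.0% at 5 kb outside.

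**Figure D4:**
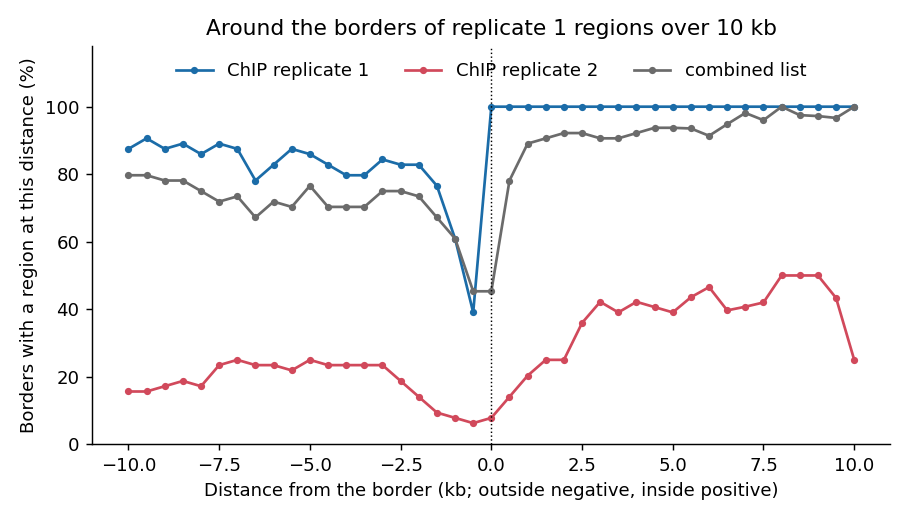
Share of the borders of replicate 1 regions over 10 kb on chromosome 4 that have a region of each list at a given distance (y axis, %; x axis, kb, outside negative and inside positive, in steps of 500 bp). ChIP replicate 2 is lowest at 6.25% just outside the border and reaches 42.2% at 3 kb inside, and replicate 1 is at 100% inside by construction; up to 5 kb inside all 64 borders count, fewer beyond.

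The authors' enrichment score, whose scale the lists do not name, was set against width within each list only. On chromosome 4 the median score was 1.10 in replicate 1 (0.31 to 2.58), 0.61 in replicate 2 (0.29 to 1.49) and 0.47 in the combined list (0.23 to 2.41). On the arms the medians were 0.79, 0.69 and 0.48. Relative to the arms of the same list, chromosome 4 scores were thus higher in replicate 1, lower in replicate 2 and nearly equal in the combined list. Scores on chromosome 4 did not reach the highest ones of the arms, which were 3.73, 3.21 and 3.96. In replicate 1, chromosome 4 regions under 5 kb had a median score of 0.88, against 0.76 on the arms, those of 5 to 10 kb 1.12, against 1.20, and those over 10 kb 1.81, against 1.40. The excess in replicate 1 was therefore largest among the wide regions and turned round in the middle class. In replicate 2 the 68 chromosome 4 regions under 5 kb had a median of 0.56 and the 14 of 5 to 10 kb 0.90, against 0.66 and 0.97 on the arms.

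Wider regions scored higher on chromosome 4 in each list. The rank correlation of width and score was 0.77 over the 128 regions of replicate 1, 0.68 over the 83 of replicate 2 and 0.60 over the 158 of the combined list, and 0.63, 0.74 and 0.60 on the arms. These are descriptions, since all regions of a list share 1 library or set of libraries. The 5 widest regions of replicate 1 were 461151 to 523440, 101740 to 146700 (45.0 kb, score 1.69), 1044577 to 1087010 (42.4 kb, 2.11), 228920 to 268827 (39.9 kb, 1.70) and 190093 to 228773 (38.7 kb, 2.17). Replicate 2 covered them to 41.6%, 18.5%, 50.6%, 14.0% and 63.4%. The 5 widest of replicate 2 were 218078 to 228765, 669829 to 679148 (score 0.69), 1046558 to 1055524 (1.21), 327626 to 336497 (1.22) and 82908 to 91041 (1.18). Of these, 4 lay wholly in replicate 1, and 669829 to 679148 bridged a gap of 227 bp between 2 of its regions. The hosts of 218078 to 228765 and 1046558 to 1055524 were among the 5 widest regions of replicate 1.

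**Figure D5:**
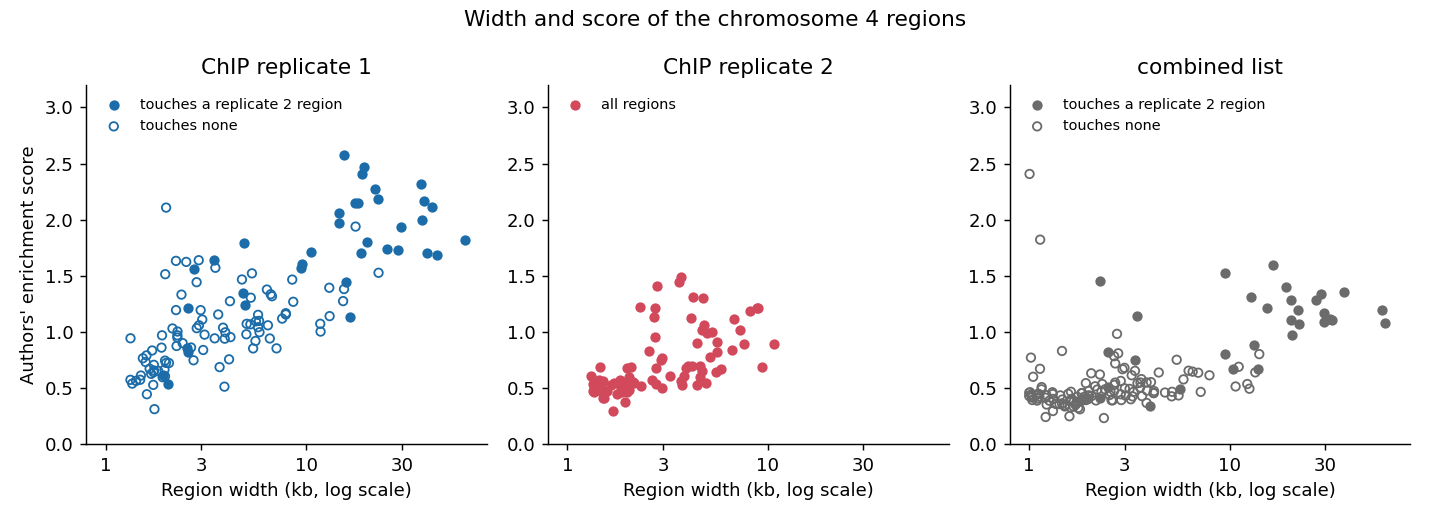
Authors' enrichment score (y axis, scale not named) against region width (x axis, kb, log scale) for every chromosome 4 region of each list. Filled points of ChIP replicate 1 and the combined list touch a ChIP replicate 2 region and open points touch none; above 10 kb, 24 of 32 replicate 1 regions are filled, and at 1 kb the combined list has 2 open points with scores of 1.82 and 2.41.

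Among the 3 best-scoring regions of each list, a single place was shared, between replicate 1 and the combined list. In replicate 1 they were 677820 to 693206 (15.4 kb, score 2.58), 321782 to 341271 (19.5 kb, 2.46) and 146704 to 165598 (18.9 kb, 2.41), and replicate 2 covered 73.8%, 45.5% and 53.4% of them. In replicate 2 they were 62867 to 66565 (3.70 kb, 1.49), 978106 to 981714 (3.61 kb, 1.45) and 950206 to 952998 (2.79 kb, 1.41), each wholly inside a replicate 1 region. The combined list had 37904 to 38908 first (1005 bp, score 2.41), then 615180 to 616314 and then 324814 to 341260 (16.4 kb, 1.59). The last of these lay wholly inside the second best of replicate 1, 321782 to 341271, of which the combined list covered 94.9%. The region 37904 to 38908 lay inside the replicate 1 region 37892 to 39892 (score 2.11), the highest-scoring replicate 1 region under 10 kb, and replicate 2 had no region there. The leading combined region was thus a short one near the centromere-proximal end that replicate 2 did not share.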

How the data were processed

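Regions were read from the lists the authors deposited, 1 for each ChIP replicate and 1 for the series. The submitters' processing notes name Bowtie 0.12.7 for the reads, and positions are 1-based on FlyBase release 5, per the file headers. What called the regions, at which threshold, whether input DNA was subtracted and how the combined list was made is not given in the sources used here. The enrichment score in the deposited lists has no named scale, so scores were compared only within a list. Read totals are not in the lists, and depth is unknown. The combined list is not independent of the replicates.

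Only rows typed as enriched were kept, which left out 1 depleted row of the combined list. Coverage used header lengths without correction for unmappable sequence. Regions were called found at an overlap of 1 bp or more. Interval code (Python 3.11.15, numpy 2.4.6, scipy 1.17.1) was tested on simulated lists. No test was run across the 2 replicates. Alternatives varied the score limit, joining distance, border distance, overlap, chromosome length, list and replicate. Named regions were the 5 widest, the 3 best-scoring, the 3 longest gaps, the first and last region and the fullest host per list, replicate 2 regions with under 50% of bases in replicate 1 and combined regions in neither replicate. The other regions, gaps and stretches given by position were chosen after their values were seen. Members, lists and rules were chosen with earlier results of these data known. Gene positions were of release 6 and were not used.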

Additional observations from a re-analysis of the deposited data

How the results depend on the processing

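Of 34 alternative values for 7 results, 18 stayed within the limit set for them and 16 moved. For the covered share, width, gap and nesting the limit was 1 SD of 2 replicates, which is wide where they disagree (42.4 percentage points for the covered share) and does not measure stability. With 2 replicates, leaving out 1 always gives a value within that limit. For these results such values could not move, and they count among the 18. The count of stretches was held to 1.5 times, and both shares between lists to their exact 95% interval, which covers counting error only. For the share of replicate 2 bases in replicate 1, that interval took single bases as independent, which understates its width. Leaving out either replicate gave a covered share of 21.4% to 81.5%, 83 to 127 merged stretches, a median width of 2771 to 4037.5 bp, a median gap of 955 to 2616 bp and 0% nested within a list. Keeping regions at or above the median score of their list (98 of 128 in replicate 1, 33 of 83 in replicate 2) gave a mean of 65.5 stretches in place of 105, a median width of 5134 bp in place of 3404 bp and a median gap of 12169 bp in place of 1786 bp. That gap is a mean of 1018 bp in replicate 1 (955 bp with all regions) and 23319.5 bp in replicate 2 (2616 bp), where it exceeded the 13792.5 bp of the arms under the same limit. That limit also put 100% of replicate 2 bases in replicate 1 in place of 99.0%. The combined list gave 158 stretches. Joining regions across 1 kb gave a mean of 60.5 stretches with a median gap of 3818 bp, and across 5 kb 23 stretches and 14828 bp, by construction. Counted as whole regions, 100% of replicate 2 regions were touched by replicate 1, and 3.61% met it at 50% reciprocal overlap, since their hosts are wider. The share of replicate 1 borders matched in the combined list (70.1%) was 57.4% and 58.3% after joining across 1 kb and 5 kb, 56.7% within 500 bp, 79.1% within 2 kb, and 10.2% with replicate 2 as the other list. For the moved values from the higher-scoring part, the border shares and the combined list, the cause was not tested. No paired analysis was possible because the input samples that share the replicate numbers have no region list here. The lists hold no read totals, so what depth contributes to the replicate difference has no bound.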
